A study of Mus musculus with 9 samples.

Results

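The mitochondrial ribosomal proteins are the nuclear-encoded proteins of the ribosome that works inside mitochondria, and their RNA was compared here between non-epithelial mammary cells of CR mice and of ad libitum-fed mice. They were taken as every gene of the table whose symbol starts with Mrpl or Mrps followed by a digit. This gave 68 of 11063 genes, of which 41 carry an Mrpl name (large subunit) and 27 an Mrps name (small subunit). A further 10 genes with such names in the RefSeq annotation were not analysed here. Expression was measured in virgin female FVB/N mice, with 1 library from each of 4 mice fed ad libitum (AL2 to AL5, after the numbers in the labels) and 5 mice under CR (CR1 to CR5). CR began at 6 weeks of age and lasted 8 weeks, and per the labels the CR mice received 65% of the food eaten by their ad libitum-fed counterparts, while the study's methods describe a slightly milder restriction. From the #4 glands 15000 cells that were Lin-, CD49f negative and CD24 negative were sorted per mouse, after a step meant to remove endothelial cells and part of the hematopoietic cells and fibroblasts, and 30 ng of RNA entered each library.

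In the cell, these proteins are made on cytosolic ribosomes, imported into mitochondria and assembled into a pair of particles, the small subunit that reads the message and the large subunit that joins the amino acids. The finished mitoribosome makes the few core subunits of oxidative phosphorylation that mitochondrial DNA still encodes. Many members descend from bacterial ribosomal proteins, and most of the others were added to the particle in mitochondria. Translation in mitochondria is needed wherever cells respire, and loss of single members in humans causes combined defects of oxidative phosphorylation.

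The values are normalized counts, that is, counts of molecules divided by the size factor of their library. The molecules were counted at the 3' end of the gene, so a count does not grow with transcript length. Depth, recovered as whole counts, was lower with ad libitum feeding (382877 to 817030 per library) than under CR (785301 to 1485963), so the former levels rest on fewer counts. For a gene at 0, up to 3 counts remain possible, which in normalized counts is 2.69 to 5.85 for AL2 to AL5 and 1.55 to 2.90 for CR1 to CR5, and this limit covers counting error only. Of the T cell markers, 15 of 19 were in the table, and their summed level was 1799.8 to 3063 normalized counts with ad libitum feeding but 118 to 234 under CR. All 13 T cell markers tested fell in CR mice (limma, adjusted p at most 0.05). The fibroblast markers were abundant in every library, at 13352 to 24939 against 21487 to 27954 normalized counts, and 6 of 19 tested rose. Of 11 epithelial markers 4 were in the table, with a sum of 17.1 to 29.2 against 10.6 to 31.0 normalized counts. Only Krt19 of these reached the filter, at 5.39 to 25.3 in AL2 to AL5 and 4.83 to 22.3 in CR1 to CR5, and it did not pass the test. Other immune markers were lower in CR mice too: 4 of 5 tested mast cell markers, 2 of 2 of NK and cytotoxic cells, 1 of 1 of B cells and 2 of 4 of macrophages and monocytes. Of 4 tested endothelial markers 1 was lower and 1 higher. In these bulk libraries, fewer cells of a type and less RNA per cell cannot be told apart.

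Few single mitochondrial ribosomal protein genes passed the test between the diets, and those that did were lower in CR mice. Of the 68 genes, 61 reached 10 normalized counts in at least 4 libraries and were tested, 37 of the large and 24 of the small subunit. At an adjusted p of at most 0.05 (limma on log2(normalized count + 1), adjusted over all 6815 tested genes), 3 members fell in CR mice and 0 rose, which is 4.92% of the tested members. This is a lower share than over all tested genes, of which 17.1% passed, 7.98% higher and 9.14% lower in CR mice. The 3 members that fell were Mrpl34, Mrpl18 and Mrps16. At an unadjusted p under 0.05, 2 members were higher and 8 lower, where the shares over all tested genes were 16.4% higher and 14.1% lower. DESeq2 and edgeR, run on the recovered counts, called the same 3 members and 0 higher ones. Mouse by mouse, in 4 members every CR mouse was below every ad libitum-fed mouse, in 0 members every CR mouse was above, and over all tested genes the shares were 9.63% and 7.29%.

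**Figure D1:**
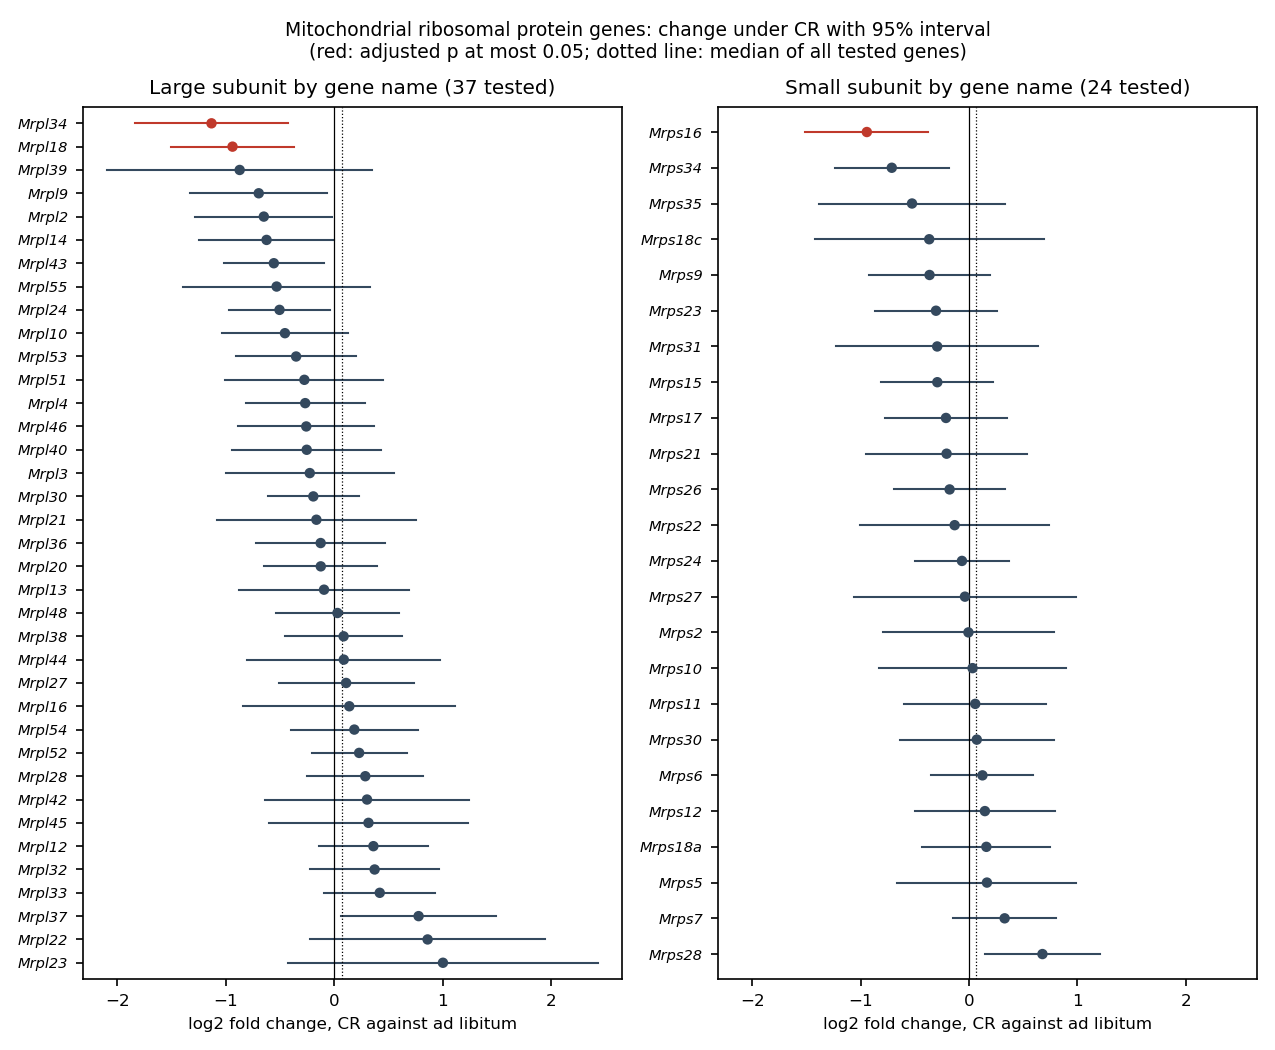
Each point is the log2 fold change of a tested member in 5 CR mice against 4 ad libitum-fed mice, with its 95% interval from limma, for the large subunit (left, 37 genes) and the small subunit (right, 24 genes). Most intervals cross 0, and the 3 red points, Mrpl34, Mrpl18 and Mrps16, are the members that passed the test.

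Fold changes of the members were spread on both sides of 0, with 25 positive and 36 negative values. Their median was -0.12 on the log2 scale, and that of all tested genes was 0.07. These calls depended on single mice: without CR1 0 members passed, and without AL2, AL4, AL5 or CR3 in turn 1 lower member did. Scaled to the summed fibroblast markers, 9 members were lower and 0 higher, and over all tested genes 78 were then higher and 1026 lower, in place of 544 and 623. Gsn and Dcn had the highest levels in that sum, at means of 7463 and 3729 normalized counts with ad libitum feeding and 9771 and 5983 under CR. Dcn itself was called higher in CR mice (limma, adjusted p = 0.00473).

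Mrpl34 encodes the mitochondrial form of a small basic protein of the bacterial large subunit. Its levels were 44.0, 29.2, 30.9 and 37.9 normalized counts in AL2 to AL5 and 9.66, 20.2, 11.8, 27.4 and 13.7 in CR1 to CR5. Every CR mouse was below every ad libitum-fed mouse, with CR4 closest to them. The log2 fold change was -1.13 ± 0.34 (SE), the largest fall among the tested members, with an adjusted p of 0.0258 (limma) and p = 0.0159 in the exact two-sided permutation test over all assignments of the mice. Mrpl34 lies on chromosome 8 from 71464926 to 71465753 (GRCm38, plus strand), so the gene is shorter than the 1000 bases counted. No other gene is annotated over it.

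Mrps16 is the mitochondrial form of a bacterial small subunit protein, and human mutations in it cause a combined oxidative phosphorylation defect. It was at 71.8, 62.4, 74.7 and 48.3 normalized counts in AL2 to AL5 and at 24.2, 45.3, 24.1, 44.4 and 30.9 in CR1 to CR5. The groups did not overlap, but AL5 came close to CR2 and CR4. The log2 fold change was -0.94 ± 0.27 (SE), with an adjusted p of 0.0216 (limma) and an exact permutation p of 0.00794, the smallest that the assignments of 9 mice can give.

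Mrpl18 belongs to the protein family that in bacteria holds the smallest ribosomal RNA of the large subunit. Its levels were 45.8, 52.6, 76.0 and 98.3 normalized counts in AL2 to AL5 and 25.1, 40.4, 31.8, 39.2 and 33.5 in CR1 to CR5. The ad libitum-fed mice spread more widely than the CR mice, and the groups did not overlap. On the log2 scale it changed by -0.94 ± 0.27 (SE), with an adjusted p of 0.0220 (limma) and an exact permutation p of 0.00794.

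RefSeq start regions (GRCm38.p6) of these 3 members are shown because they were the ones that fell, with that of Mrpl52, the most abundant member, which did not pass the test. Each runs 5' to 3' from 100 bases before to 50 bases after a listed transcription start, except that of Mrpl18, which begins 250 bases before it. From 100 bases before to 50 bases after its start, Mrpl18 held none of the 3 strings searched for, and only the longer stretch holds a match. The annotated gene of Mrpl18 extends upstream of this start, to 12917787 on chromosome 17. Capitals mark matches to a short letter string taken for each of 3 factors known to act at promoters of mitochondrial genes: CCGGAAG for ETS factors, the family of GABPA, TGCGCA for NRF1 and AAGATGGC for YY1, on either strand. The strings do not overlap each other in these windows.
Mrpl34 (chr8:71464826-71464975, plus strand): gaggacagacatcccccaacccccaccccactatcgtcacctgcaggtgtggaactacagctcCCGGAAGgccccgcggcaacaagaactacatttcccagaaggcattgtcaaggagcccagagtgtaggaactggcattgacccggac
Mrps16, upstream start (chr14:20393585-20393734, minus strand): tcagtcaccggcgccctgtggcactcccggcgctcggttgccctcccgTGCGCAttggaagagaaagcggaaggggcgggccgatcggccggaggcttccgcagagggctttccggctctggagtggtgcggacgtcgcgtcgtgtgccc
Mrps16, downstream start (chr14:20393441-20393590, minus strand): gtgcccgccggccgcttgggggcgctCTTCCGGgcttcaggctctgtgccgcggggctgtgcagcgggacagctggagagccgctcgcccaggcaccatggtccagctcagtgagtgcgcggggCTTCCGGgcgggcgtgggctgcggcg
Mrpl18 (chr17:12916042-12916341, minus strand): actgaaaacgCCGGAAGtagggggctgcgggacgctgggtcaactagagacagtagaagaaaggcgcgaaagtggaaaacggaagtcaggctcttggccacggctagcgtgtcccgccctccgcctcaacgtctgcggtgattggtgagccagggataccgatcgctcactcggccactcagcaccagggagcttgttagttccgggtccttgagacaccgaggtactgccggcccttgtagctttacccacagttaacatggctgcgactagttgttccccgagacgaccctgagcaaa
Mrpl52 (chr14:54426809-54426958, plus strand): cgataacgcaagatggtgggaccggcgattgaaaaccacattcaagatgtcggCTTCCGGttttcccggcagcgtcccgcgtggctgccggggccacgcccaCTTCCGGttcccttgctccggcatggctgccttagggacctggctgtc
The ETS string began 37 bases before the start in Mrpl34 and 240 bases before it in Mrpl18, and Mrpl52 held it at -47 and 3. A match is a description of letters and not a binding site.

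Start regions of 300 bases were listed for 60 of the 68 members. The ETS string was found in 23 of them, or 38.3%, against 21.8% of the start regions of tested genes and 9.93% of those of all listed genes. TGCGCA was found in 28.3%, 16.4% and 8.79%, and AAGATGGC in 18.3%, 6.03% and 3.19% of the same regions. All 3 strings were present in 1 member, Mrps18a, and none of them in 21. By string, the median log2 fold change was -0.18 in 21 tested members with and -0.06 in 33 without the ETS string. It was 0.01 (16 members) and -0.17 (38) for TGCGCA, and 0.15 (10) and -0.21 (44) for AAGATGGC. Tested members without a listed start region, Mrps28 and Mrps34 among them, are not in these medians. These medians include the called members and were not tested.

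Among the other members of the large subunit, Mrpl9 (its bacterial relative reaches out from the base of the stalk) was at 32.3, 23.4, 42.5 and 58.6 normalized counts in AL2 to AL5 and at 24.2, 27.5, 21.8, 22.2 and 18.0 in CR1 to CR5. Only AL3 was within the range of the CR mice. Its log2 fold change of -0.70 (95% interval -1.33 to -0.07) did not pass (limma, adjusted p = 0.122). Mrpl39, a protein without a bacterial relative, was low, at 5.17 to 25.3 normalized counts in AL2 to AL5 and 1.72 to 15.5 in CR1 to CR5, and its value of -0.87 had an interval of -2.09 to 0.35.

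Of the large subunit members with the highest positive values, none passed. Mrpl37, another mitochondria-specific protein, was at 34.1, 11.7, 21.9 and 13.8 normalized counts in AL2 to AL5 and at 42.5, 40.4, 21.2, 32.0 and 32.6 in CR1 to CR5. AL2 was above 3 of the CR mice and CR3 was below AL4, and the log2 fold change was 0.78 (interval 0.07 to 1.49, adjusted p = 0.125 with limma). Without AL2 the adjusted p of Mrpl37 was 0.0469 (limma). When other mice were left out it ranged up to 0.294, and 8 of the 9 values were above the threshold. Mrpl23 and Mrpl22, whose bacterial relatives line the tunnel through which the new chain leaves, were close to the lower limit of the filter. Mrpl23 ranged from 0 to 13.6 normalized counts in AL2 to AL5 and from 9.41 to 13.5 in CR1 to CR5, and its log2 value of 1.004 had an interval of -0.42 to 2.43. The 0 came from AL5, and without AL5 the value of Mrpl23 was 0.14, while DESeq2 and edgeR gave 0.49 and 0.47 with all mice. Mrpl22 had a log2 value of 0.86 (interval -0.22 to 1.95), and it was lowest in AL5 as well, at 1.72, without which the value was 0.23. DESeq2 and edgeR gave 0.55 and 0.52 for Mrpl22. Mrpl33, a small protein with a bacterial relative, had a log2 value of 0.42 (interval -0.09 to 0.93).

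In the small subunit, Mrps34, a mitochondria-specific protein whose loss in humans causes Leigh syndrome, was at 49.4, 46.8, 61.9 and 60.3 normalized counts in AL2 to AL5 and at 34.8, 43.6, 24.7, 36.1 and 27.5 in CR1 to CR5. The groups did not overlap, and the log2 fold change was -0.71 (interval -1.24 to -0.19) with an adjusted p of 0.0594 (limma), just outside the threshold. Without CR2 the adjusted p of Mrps34 was 0.0447 (limma). It ranged up to 0.143 when other mice were left out, and 8 of the 9 values were above the threshold. Over its last 1000 bases lies Mapk8ip3 on the opposite strand.

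Mrps28 moved the other way. Its levels were 43.1, 44.8, 37.4 and 32.8 normalized counts in AL2 to AL5 and 84.1, 58.2, 54.1, 44.4 and 86.6 in CR1 to CR5. Only CR4 was within the range of the ad libitum-fed mice, and the log2 fold change was 0.68 (interval 0.15 to 1.21) with an adjusted p of 0.0744 (limma). Without CR4 it was 0.80 with an adjusted p of 0.0443 (limma). Leaving out each mouse in turn gave adjusted p of 0.0443 to 0.173 (limma), above the threshold in 8 of 9 cases.

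The remaining named members of the small subunit gave intervals that included 0. Mrps7 and Mrps5, related to bacterial proteins of the head and of the body of the particle, had log2 values of 0.33 (interval -0.14 to 0.80) and 0.17 (-0.66 to 0.99). The value of Mrps5 was -0.16 without AL3 and at or below -0.02 with each of the 3 count-based tools. Mrps35 and Mrps18c were at -0.53 (-1.39 to 0.33) and -0.37 (-1.42 to 0.69). Mrps12, at the decoding site, varied little between mice, at 15.6 to 19.8 normalized counts against 14.6 to 23.5. It is named after its values were seen.

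**Figure D2:**
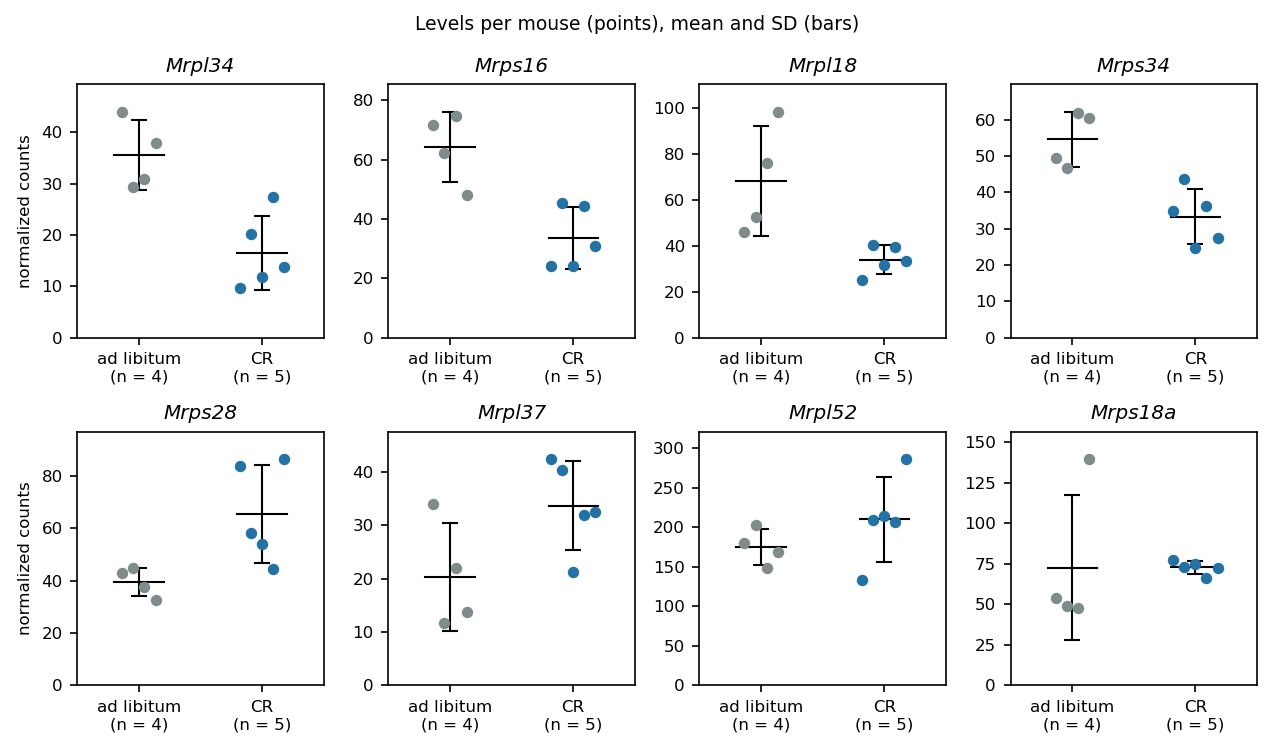
Normalized counts of 8 members in each mouse (points, n = 4 ad libitum and n = 5 CR), with the mean and SD, and each vertical axis starts at 0. In Mrpl34, Mrps16, Mrpl18 and Mrps34 every CR mouse lies below every ad libitum-fed mouse, and in Mrps18a the mean of the ad libitum-fed mice rests on AL5, at 139.6.

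The most abundant members were not the ones that fell. Mrpl52 was at 174.8 ± 22.7 normalized counts (SD, n = 4) with ad libitum feeding and at 209.9 ± 54.2 (SD, n = 5) under CR, with a log2 fold change of 0.23 (interval -0.21 to 0.67). Its values in CR1, 133.4, and CR5, 286.5, were the lowest and the highest of all mice. Mrpl30 followed with 134.1 ± 23.6 against 116.7 ± 17.3 and a log2 value of -0.19 (-0.61 to 0.22). In the small subunit the highest levels were those of Mrps24, at 92.1 ± 15.8 against 87.8 ± 12.8, and of Mrps6, at 79.6 ± 14.6 against 87.2 ± 17.4, with log2 values of -0.06 (-0.50 to 0.37) and 0.12 (-0.35 to 0.59). The 7 members below the filter were Mrpl15, Mrpl47, Mrpl49, Mrpl50, Mrps14, Mrps18b and Mrps33, and they were not tested.

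The large and the small subunit were compared next, since both are built into 1 particle. The median log2 fold change was -0.12 in the large subunit (25th to 75th percentile -0.45 to 0.23) and -0.10 in the small subunit (-0.30 to 0.09). Of the large subunit 16 values were positive and 21 negative, with 2 of 37 tested members called lower. Of the small subunit 9 were positive and 15 negative, with 1 of 24 called lower. Over all tested genes 9.14% were called lower, and the median log2 fold change was 0.07. Mrps30 and Mrps18a carry a small subunit name but lie in the large subunit, and with them moved there the medians were -0.12 and -0.16. Mrps30 had a log2 value of 0.07 (interval -0.64 to 0.78), and Mrps18a one of 0.16 (-0.43 to 0.75). For Mrps18a, AL2 to AL4 were at 53.9, 48.7 and 47.7 normalized counts, AL5 was at 139.6, and the CR mice were at 66.1 to 77.3.

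Summed over the members of each subunit, the mean levels were lower under CR. The large subunit members added up to 1720.3 ± 66.6 normalized counts (SD, n = 4) with ad libitum feeding and to 1588 ± 69.6 (SD, n = 5) under CR, and these ranges overlapped. The small subunit members added up to 1013 ± 52.7 and 934 ± 18.3, and every CR mouse was below every ad libitum-fed mouse, by a margin as small as from 951.9 in CR1 to 959.5 in AL2. Large over small, the ratio of these sums was 1.70 ± 0.105 for the former diet and 1.70 ± 0.098 for the latter. All 68 members together added up to 2655 to 2855 normalized counts with ad libitum feeding and 2425 to 2588 under CR, without overlap. They made up 0.366% to 0.389% of the counts of an ad libitum library and 0.319% to 0.337% of those of a CR library, also without overlap. No test was made of these sums, since the members were chosen with earlier results known.

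**Figure D3:**
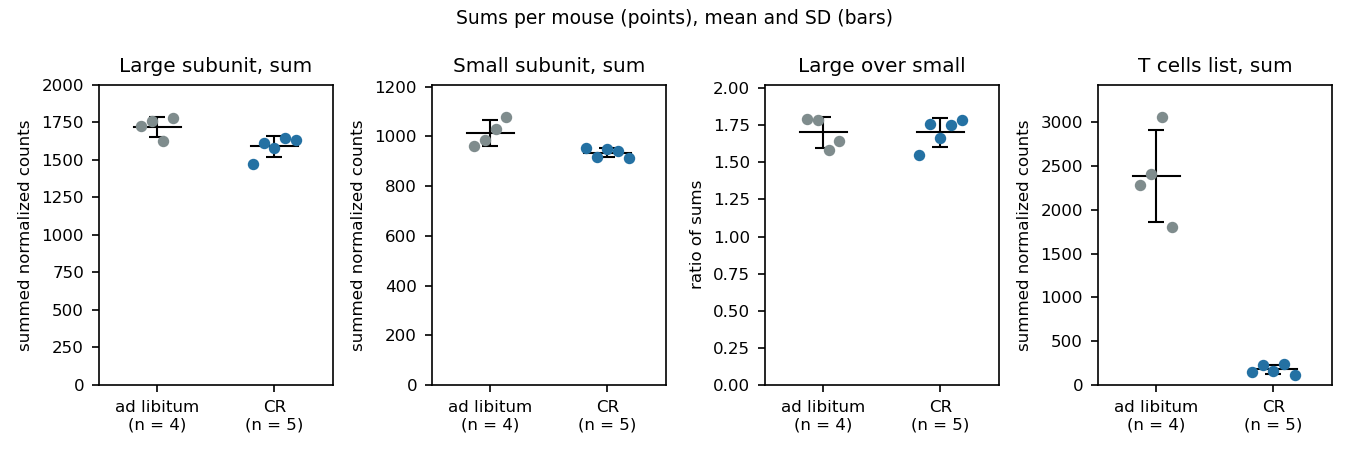
Summed normalized counts of the large and of the small subunit members, their ratio, and the summed T cell markers in each mouse (points, n = 4 ad libitum and n = 5 CR), with the mean and SD. The ratio averaged 1.70 in both diets, whereas the T cell markers were at 1799.8 to 3063 with ad libitum feeding and at 118 to 234 under CR.

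By origin, all 3 called members belong to the 41 members with a bacterial relative (by the particle's systematic protein names), of which 38 were tested, with a median log2 fold change of -0.12. By these names Mrps18a and Mrps18b count as mitochondria-specific, although their namesake Mrps18c counts among those with a bacterial relative. Over all tested genes 17.1% passed in either direction, and 9.14% were lower. Of the 27 mitochondria-specific members 23 were tested and 0 passed, with a median of -0.13. At an unadjusted p under 0.05 (limma), 2 of them were lower and 1 higher. DESeq2 and edgeR called 0 of them as well. Mrps34 was called lower by limma-voom and with a filter of 30 normalized counts. Scaling by library total or to the fibroblast markers called both Mrpl43 and Mrps34 lower. Mrpl37 was called higher without AL2, and Mrps34 lower without CR2.

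How closely these values were measured differed between members. The mean level of a tested member was between 9.73 and 194 normalized counts, with a median of 34.6, near the 31.3 of all tested genes. Over the members, the median coefficient of variation was 30.1% between AL2 to AL5, where counting alone gives 19.6%, and 26.8% between CR1 to CR5, where it gives 15.0%. The 95% interval had a median reach of 0.62 to either side on the log2 scale, from 0.42 to 1.43 over the members. It stayed within 1 log2 unit, a 2-fold change in either direction, for 36 of the 58 members that did not pass, so for these a larger change lay outside the interval, and for the others it did not.

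Other parts of the mitochondrial translation machinery were described from fixed lists. Of 3 tested mitoribosome subunits with other names 0 passed (1 was lower at an unadjusted p under 0.05), with a median log2 fold change of -0.40. Of 14 tested genes for the assembly of the mitoribosome and the modification of its RNA, 2 fell, 0 rose and 12 did not pass, with a median of -0.43. Over all tested genes 9.14% were lower, so a count of 2 is near what the whole table gives. The genes that fell were Mettl17, an assembly factor of the small subunit, and Rbfa, which binds the RNA of the maturing small subunit. Mettl17 was at 35.9, 27.3, 51.6 and 31.0 normalized counts in AL2 to AL5 and at 7.73, 17.0, 9.41, 17.0 and 15.4 in CR1 to CR5, without overlap, and changed by -1.41 ± 0.34 (SE, log2) with an adjusted p of 0.00754 (limma). Rbfa was at 56.1 ± 15.5 (SD, n = 4) against 30.9 ± 7.75 (SD, n = 5), with a log2 value of -0.84 and an adjusted p of 0.0414 (limma). Only 1 gene of the list passed without AL2, AL3, AL4, CR1, CR2, CR3 or CR4 in turn.

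Of 9 tested genes listed as mitochondrial aminoacyl-tRNA synthetases, which load amino acids onto tRNA, 3 fell and 0 rose. Over all tested genes 9.14% were lower in CR mice. The median log2 fold change of 0.06 includes Gatc (0.91), an amidotransferase subunit, and Gars (0.10) and Kars (0.06), which also serve the cytosol. None of these 3 passed, nor did Iars2, Yars2 and Fars2, at -0.34, 0.63 and 0.87. Tars2, Sars2 and Cars2, the enzymes for threonine, serine and cysteine, changed by -1.58 ± 0.42, -1.31 ± 0.39 and -1.29 ± 0.37 (SE, log2), with adjusted p of 0.0131, 0.0258 and 0.0217 (limma). Tars2 was at 44.9, 40.9, 123.7 and 29.3 normalized counts in AL2 to AL5 and at 23.2, 26.7, 18.2, 14.5 and 6.86 in CR1 to CR5, without overlap and with AL4 far above the rest. Sars2 did not overlap between the diets either, at 21.5 to 37.9 against 6.76 to 18.6. Cars2 did, at 26.0 to 56.5 against 6.86 to 29.1. Without AL4, 0 genes of the list were called lower by limma, and without AL3 1 was called higher.

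None of 6 tested translation factors and 11 tested genes of mitochondrial transcription and RNA processing passed with limma (1 factor was higher and 2 of the 11 were lower at an unadjusted p under 0.05). Of 7 tested regulators of mitochondrial biogenesis 1 rose. This was Myc, a transcription factor known to raise ribosomal and mitochondrial genes, at 342.9, 313.7, 286.1 and 362.0 normalized counts in AL2 to AL5 and at 558.6, 598.1, 653.9, 496.6 and 534.4 in CR1 to CR5. All CR mice were above all ad libitum-fed mice, with a log2 fold change of 0.80 ± 0.16 (SE) and an adjusted p of 0.00150 (limma). The call of Myc was lost when levels were scaled to the fibroblast markers. Nrf1, Gabpa and Yy1, which encode factors whose strings were searched above, had log2 values of -0.24, 0.40 and -0.11 and did not pass.

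Over all tested genes, the shares called were 9.14% lower and 7.98% higher in CR mice. The cytosolic ribosomal proteins, the counterparts of the members outside mitochondria, had a median log2 fold change of -0.26 over 77 tested genes, of which 14 fell and 1 rose. The nuclear-encoded subunits of oxidative phosphorylation, which join the products of the mitoribosome, had a median of -0.13 over 73 tested genes, of which 2 fell and 0 rose. The mitochondrial ribosomal proteins, at -0.12, were close to the latter, and the difference between these lists was not tested.

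The 3 calls stood beside a change in the markers of several cell types. In the same mice in which Mrpl34, Mrps16 and Mrpl18 fell, the median log2 fold change of the tested markers was -3.78 for T cells, -2.90 for NK and cytotoxic cells, -2.82 for mast cells and -1.40 for macrophages and monocytes. No macrophage marker lay near that last median. Tyrobp and Ctss fell, at -3.27 and -2.74, while Lyz2 and Cd14, both at -0.07, did not pass. The summed mast cell markers were at 384 to 758 normalized counts in AL2 to AL5 and at 40.0 to 172 in CR1 to CR5, without overlap, whereas the sums for macrophages and monocytes overlapped, at 160.3 to 403 against 53.2 to 337. The part of these cell types in the 3 calls was not tested. With the mean level of the T cell markers as a term of the model, which lies almost along the diet, 0 of 6815 genes passed, and the log2 values of Mrpl34, Mrps16 and Mrpl18 became 1.29, 1.88 and 0.37, each with an adjusted p of 0.996 (limma).

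**Figure D4:**
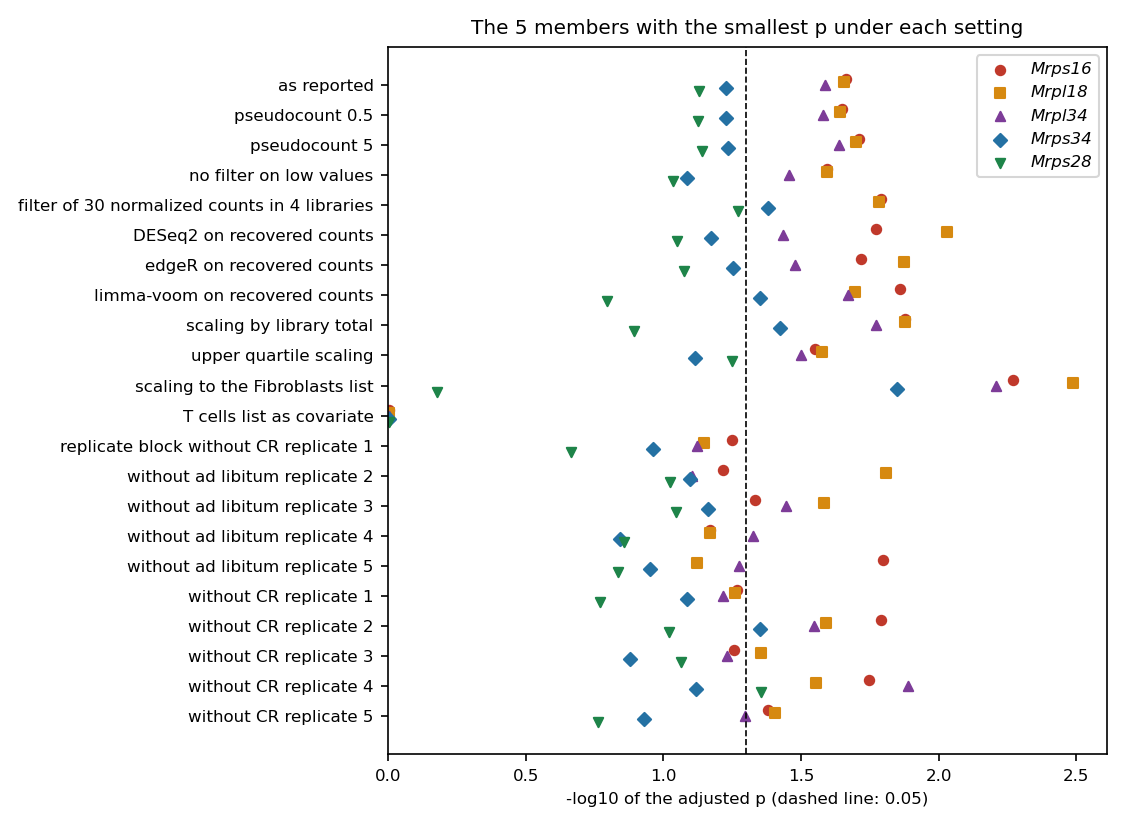
Adjusted p (as -log10, horizontal axis) of the 5 members with the smallest p under each way of processing (vertical axis), where points right of the dashed line passed at 0.05. Mrps16, Mrpl18 and Mrpl34 passed under each change of test and of scaling shown that kept all 9 mice and had no T cell term, apart from Mrpl34 with the filter of 30 normalized counts, under which it was not tested, and 0 to 3 of them passed when 1 mouse was left out.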

How the data were processed

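Per the labels and the study's methods, bulk 3' RNA-seq libraries with molecular identifiers were made from 1 mouse each. The authors trimmed reads with cutadapt, aligned them to mm10 with STAR, counted molecules with HTSeq over the last 1000 bases of RefSeq genes, corrected for identifier saturation and divided by DESeq2 size factors (no versions are given in the sources used here). The deposited signal is this normalized count. In each library 99.98% to 100% of the values were whole multiples of a step within 0.0051, and dividing by the step recovered whole counts.

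Genes with 10 normalized counts in at least 4 libraries were fitted with limma 3.58.1 (trend) on log2(normalized count + 1), R 4.3.3, with Benjamini-Hochberg adjustment over 6815 genes and a threshold of 0.05. Alternatives were pseudocounts of 0.5 and 5, other filters, DESeq2 1.42.0, edgeR 4.0.16 and limma-voom on recovered counts, other scalings, a T cell term, a replicate block and leaving out each mouse. Single genes were compared by exact two-sided permutation of the absolute difference of means. The members and the 16 lists were chosen with earlier results of these data known. Named members were the called ones, the 4 largest and 4 smallest fold changes and 2 highest levels per subunit, and those whose place differs from their name. Scripts were tested on simulated data. Libraries of a diet were not duplicates (chi-square per degree of freedom at least 3.70). Start regions came from RefSeq (GRCm38.p6). Columns of the authors' own comparison were not used.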

Additional observations from a re-analysis of the deposited data

Results flagged for a closer look

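Mrps18a, named for the small subunit but placed in the large one, was at 139.64 normalized counts in AL5, far from the other ad libitum-fed mice, which were at 47.7 to 53.9. The gap was 0.933 of the range of the 4 mice. Over the tested members, 7 of 122 groups of mice had such a value, near the 1 in 20 that chance gives. Rsph9 lies over the last 1000 bases of Mrps18a on the opposite strand.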

How the results depend on the processing

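Of the members, 3 were lower and 0 higher as reported. This held with both pseudocounts, without a filter, with DESeq2 and edgeR and with upper quartile scaling. With the filter of 30 the 3 lower members were Mrpl18, Mrps16 and Mrps34. limma-voom gave 4 lower members, library total scaling 5, and fibroblast scaling 9. These were 6.56%, 8.20% and 14.8% of the tested members. Over all tested genes, 15.8%, 16.3% and 16.2% were then called in either direction, with 679, 699 and 1026 of 6815 lower. The T cell term gave 0 lower members, as did the replicate block. Leaving out each mouse gave 0 to 4 lower members (0 without CR1) and 0 to 1 higher ones. The share of higher genes among all calls was 46.6% as reported, 37.2% by library total, 36.8% with limma-voom and 7.07% by fibroblast scaling, which shifted the median of all genes by -0.44. It moved the medians of the large and the small subunit to -0.57 and -0.54. Such scaling divides all genes of a library by 1 number, so it moves all log2 values by nearly the same amount. The members' median less that of all genes therefore had to stay near its value, at -0.19. Beyond this arithmetic, the cause of these changes was not tested.

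Directions reversed for Mrps5 with DESeq2 (-0.020), edgeR (-0.047) and limma-voom (-0.19), for Mrps18a with edgeR (-0.0018) and for Mrps30 by library total (-0.018). By fibroblast scaling Mrpl33 (-0.026), Mrpl52 (-0.22), Mrps7 (-0.12), Mrps5 (-0.27), Mrps18a (-0.29), Mrps6 (-0.33) and Mrps30 (-0.37) turned negative. The T cell term turned Mrpl18 (0.37), Mrpl34 (1.29), Mrps16 (1.88), Mrpl39 (2.97), Mrpl9 (0.13), Mrpl30 (0.37), Mrps34 (0.82), Mrps35 (0.85) and Mrps18c (4.15) positive and Mrpl33 (-1.49), Mrpl52 (-0.46), Mrps28 (-1.54), Mrps18a (-1.88), Mrps6 (-1.74) and Mrps30 (-0.46) negative, and moved the small subunit median to 0.32. Because the T cell term lies almost along the diet, the values fitted with it are poorly determined and their signs cannot be read as directions. With it 0 of 6815 genes passed. Leaving out 1 mouse took Mrps30 from -0.16 to 0.29, Mrps5 from -0.16 to 0.46 and Mrps24 from -0.16 to 0.034.

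Same-numbered libraries correlated at -0.058 to 0.042 in their deviations from the diet means, and libraries of unlike number at -0.12 to 0.13. With so few mice, these values cannot tell whether mice of the same number were paired. With the replicate block, which leaves out CR1, 0 members passed, as without CR1 alone.

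The intervals of 25 of the 61 tested members, low ones such as Mrpl23 and Mrps18c among them, reached 1 log2 unit or more.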
